A study of Mus musculus with 30 samples.

Results

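The 10 genes described here, Sst, Lamp5, Pvalb, Vip, Npy, Cck, Gad1, Gad2, Slc32a1 and Reln, mark inhibitory interneurons of the cortex and hippocampus, and they were measured in mouse brain tumors and in normal mouse brain. They were taken by symbol from the gene annotation of the array. Each was measured by a single probe set that names no other gene, and they are 10 of the 19938 genes tested. None was left out and no filter on low signal was applied.

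Total RNA of dissected tumors and normal tissue was hybridized to 30 Affymetrix Mouse Gene 1.0 ST arrays, which report 1 log2 signal per probe set. Tumors followed injection of a construct in which the GFAP, SYN1 or NES promoter drives the recombinase Cre. GFAP is an astrocyte gene that neural stem cells also use, SYN1 is a neuron gene and NES is a gene of neural progenitors. The promoter was GFAP in 4 tumors of the cortex, 7 of the hippocampus and 3 of the subventricular zone (SVZ), the germinal layer along the lateral ventricle. It was SYN1 in 4 tumors of the cortex and NES in 4 tumors of the hippocampus. Normal cortex and normal hippocampus, with no promoter in their labels, had 4 arrays each, and no normal SVZ was among the samples. The cassette that Cre acts on, the strain, the age and the treatment of the mice are not given in the sources used here. Nothing in the labels says that arrays came from separate animals, so a p-value here covers the spread between arrays alone, and that spread could be technical.

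Inhibitory interneurons make GABA from glutamate with the decarboxylases GAD67 (Gad1) and GAD65 (Gad2) and load it into vesicles with the transporter VGAT (Slc32a1). Subtypes are told apart by calcium-binding proteins such as parvalbumin (Pvalb), by neuropeptides such as somatostatin (Sst), VIP (Vip), neuropeptide Y (Npy) and cholecystokinin (Cck), and by Lamp5 and the secreted protein reelin (Reln). Several of these genes are not confined to interneurons. Cck and Lamp5 are also used by excitatory neurons, Reln by Cajal-Retzius cells, and Gad1, Gad2 and Slc32a1 by every GABA neuron, including the projection neurons of the striatum. In bulk tissue, fewer cells of a type and less RNA per cell cannot be told apart.

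The 4 peptide genes are shown first by the 300 bases around their transcription start. Whether these sequences relate to the levels described below was not tested. The sequences are RefSeq promoters of mouse build GRCm38.p6, from 250 bases before the start to 50 after it, printed 5′ to 3′ on the strand of the gene. Sst lies at chr16:23890795-23891094 on the minus strand, Vip at chr10:5638968-5639267 on the plus strand, Cck at chr9:121495645-121495944 on the minus strand and Npy at chr6:49822460-49822759 on the plus strand. Capitals mark TGACG, the core of the cyclic AMP response element, or its reverse complement CGTCA.
Sst: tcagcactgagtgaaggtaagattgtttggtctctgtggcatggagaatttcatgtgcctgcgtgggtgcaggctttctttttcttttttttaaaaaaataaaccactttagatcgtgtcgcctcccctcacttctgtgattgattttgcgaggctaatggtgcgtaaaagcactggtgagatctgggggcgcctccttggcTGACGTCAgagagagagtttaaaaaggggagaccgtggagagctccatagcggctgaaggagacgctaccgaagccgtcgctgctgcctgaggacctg
Vip: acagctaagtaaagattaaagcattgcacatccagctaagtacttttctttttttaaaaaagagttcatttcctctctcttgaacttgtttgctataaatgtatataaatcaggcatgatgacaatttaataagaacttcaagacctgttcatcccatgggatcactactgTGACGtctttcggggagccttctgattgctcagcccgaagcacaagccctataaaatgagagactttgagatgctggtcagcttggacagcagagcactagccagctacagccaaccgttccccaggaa
Cck: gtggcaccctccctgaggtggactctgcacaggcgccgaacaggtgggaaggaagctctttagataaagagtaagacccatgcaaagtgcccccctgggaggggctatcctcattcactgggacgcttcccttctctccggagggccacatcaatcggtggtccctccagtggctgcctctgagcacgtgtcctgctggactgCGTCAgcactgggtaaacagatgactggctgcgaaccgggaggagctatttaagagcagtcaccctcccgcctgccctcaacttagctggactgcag
Npy: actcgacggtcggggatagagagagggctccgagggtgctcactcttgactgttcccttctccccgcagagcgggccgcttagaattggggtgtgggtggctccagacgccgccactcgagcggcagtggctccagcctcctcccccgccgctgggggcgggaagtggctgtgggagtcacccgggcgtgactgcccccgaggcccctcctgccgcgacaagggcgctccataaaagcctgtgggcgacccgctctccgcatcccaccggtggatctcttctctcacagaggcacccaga

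The Sst promoter held the full palindrome TGACGTCA from base -48 to base -41, counted from the start, and no other member did. This motif is the textbook binding site of CREB, the factor that links cyclic AMP to transcription. It was found in a RefSeq promoter of the same length for 549 of 27025 genes, or 2.03%. The core TGACG, searched on both strands and contained within the palindrome, was present in the promoters of Sst, Vip, Cck and Gad2, 4 of the 10 members, against 23% of all genes. It lay at -79 to -75 in Vip, at -47 to -43 in Cck and at -33 to -29 in Gad2. The Npy window did not hold these letters. TATAAA was found in the windows of Gad1 and Vip and in those of 15.7% of all genes. GGGCGG was found in those of Gad1, Npy and Reln and in those of 38.2% of all genes. All 10 members matched the table, with 12 promoters between them. A match describes the letters and does not show that a factor binds.

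Array medians ran from 7.03 to 7.30 on the log2 scale. GFAP cortex tumor 1 and GFAP hippocampus tumors 5, 6 and 7 stood apart from the other arrays on the second principal component over all genes, at -74.7 to -55.9 against -13.2 to 33.0. Cell cycle genes were higher in all 4 tumor groups compared with normal tissue (4 of 4 measured genes each). Their mean signal per array was 6.67 to 7.01 in normal tissue and 7.91 to 10.48 in these tumors. The share of all genes called higher is not set beside this count. Drd2, a dopamine receptor gene of striatal projection neurons, was above 9 in 7 arrays: normal cortex 3 and 4, GFAP cortex tumor 2, GFAP hippocampus tumor 5 and NES hippocampus tumors 2, 3 and 4. Its signal was at least 9.62 in these and at most 8.50 in the other 23. The receptor gene Drd1 (at least 8.88 against at most 8.31), Rgs9 (9.16 against 8.16) and Pde10a (10.37 against 9.94) separated the same arrays. Ppp1r1b nearly did, and Foxp1 and Bcl11b did not. These arrays matter for Gad1, Gad2 and Slc32a1, which striatal neurons also express, and the members' counts against normal tissue are given with and without them where the refit could be made.

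In GFAP tumors of the cortex, 7 of the 10 genes fell compared with normal cortex. They were Sst, Lamp5, Pvalb, Vip, Cck, Gad1 and Slc32a1, by 1.09 to 3.67 on the log2 scale (limma, Benjamini-Hochberg adjusted p under 0.05 over all genes). Of all genes, 18.8% were called lower in the same comparison. In SYN1 tumors of the cortex, 8 fell, the same 7 genes and Gad2, with differences from -4.735 to -1.54, against 20.5% of all genes. In GFAP tumors of the hippocampus, 7 fell compared with normal hippocampus: Sst, Lamp5, Vip, Npy, Cck, Gad1 and Reln, by 1.46 to 3.61, against 25.2% of all genes. In NES tumors of the hippocampus, none passed the limma test at adjusted p under 0.05 (0.166 to 0.972), and Vip alone had an unadjusted p under 0.05. There 2.86% of all genes were called lower. No member rose in any of the 4 comparisons.

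The median difference of the 10 genes was -1.81 in GFAP cortex tumors, -2.16 in SYN1 cortex tumors, -1.59 in GFAP hippocampus tumors and -0.36 in NES hippocampus tumors. The medians over all 19938 genes were -0.10, -0.04, -0.08 and -0.04. Sst, Lamp5, Vip, Cck and Gad1 were lower in all of the first 3 tumor groups, as were 13.4% of all genes. With the 7 arrays of high Drd2 left out, a choice made after the data were seen, 8 members were lower in GFAP cortex tumors, 7 in SYN1 cortex tumors and 8 in GFAP hippocampus tumors, against 16.3%, 16.8% and 23.7% of all genes. Only 1 NES tumor would then remain, so that group was not refitted. The arrays left out hold the highest Gad2 of both GFAP groups, so larger falls of Gad2 follow from that choice. With the 4 arrays that stand apart left out, the counts were 6, 8, 9 and 0 in the order of the groups above, against 20.5%, 25.6%, 26.4% and 8.20% of all genes.

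**Figure D1:**
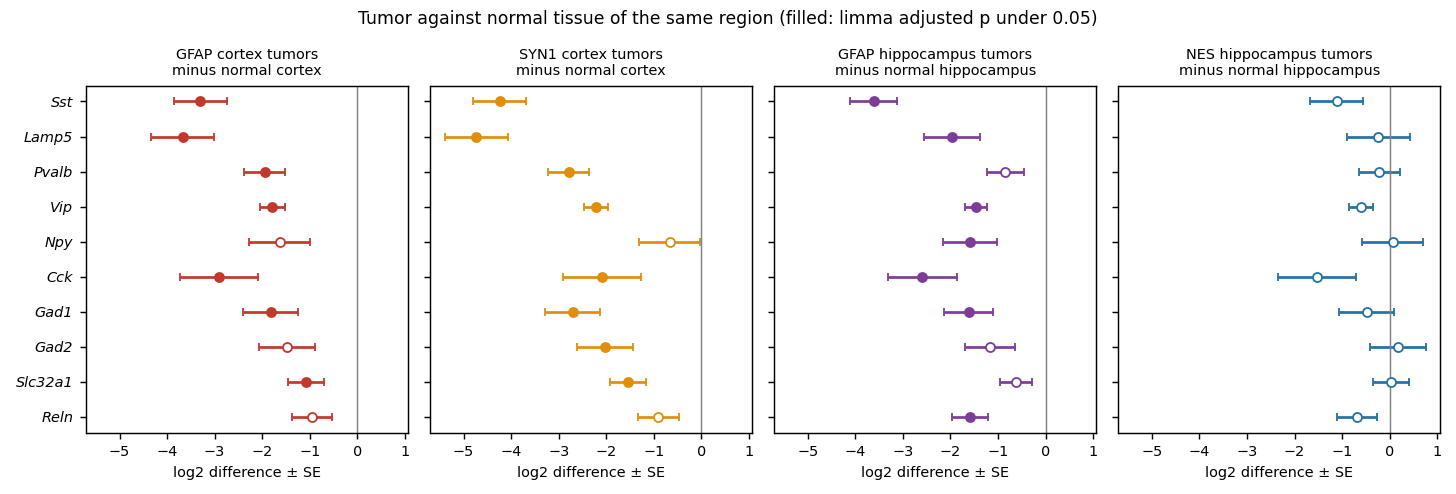
Log2 differences (horizontal axis) of the 10 genes between each tumor group and normal tissue of its region, with bars of 1 standard error from limma; filled points passed adjusted p under 0.05. Filled points number 7, 8, 7 and 0 from left to right, and all lie below 0.

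Sst, the gene of the peptide that inhibits hormone and transmitter release, had among the largest differences in every region. Its signal in normal cortex was 12.82, 12.61, 12.31 and 12.61. It was 7.23, 10.38, 10.16 and 9.36 in GFAP cortex tumors and 7.83, 8.82, 8.02 and 8.72 in SYN1 cortex tumors. No cortex tumor overlapped the normal range, and GFAP cortex tumor 1 was the lowest array. The difference was -3.30 ± 0.56 (SE) for GFAP tumors (adjusted p = 0.000163, 9.88-fold lower) and -4.24 ± 0.56 for SYN1 tumors (adjusted p = 2.21e-06, 18.9-fold lower). Arrays that did not overlap in this direction were seen for 23.9% and 25.9% of all genes in the 2 comparisons.

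Normal hippocampus had Sst at 12.67, 12.40, 12.61 and 12.54. The 7 GFAP hippocampus tumors ran from 7.77 over a median of 9.38 to 9.89, all below normal tissue, as 17.8% of all genes were, a difference of -3.61 ± 0.49 (adjusted p = 3.66e-06). NES tumors stood at 10.11, 11.43, 12.62 and 11.60. NES tumor 3 lay within the normal range and the others below it, and the difference of -1.11 ± 0.56 did not pass (adjusted p = 0.244). NES tumors had more Sst signal than GFAP hippocampus tumors, by 2.50 ± 0.49 (adjusted p = 0.0129, 5.65-fold), with no overlap between the 4 and the 7 arrays. Such separation was seen for 0.983% of all genes, and 6.12% were called higher in NES tumors.

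The direct comparison of NES with GFAP hippocampus tumors called 1 other member, Vip, at 0.86 ± 0.23 (adjusted p = 0.0282). All 10 members were nominally higher in NES tumors, and 7 had an unadjusted p under 0.05: Sst, Lamp5, Vip, Npy, Gad1, Gad2 and Reln. The shares of all genes by these 2 rules are not given here. The counts are therefore not read as results about the members alone. The calls of Sst and Vip changed with the arrays in the fit. None was made with only these 11 arrays in the fit, and none without NES tumor 3 or without NES tumor 4. Without NES tumor 1 there were 6, and without GFAP hippocampus tumor 5 there were 4. Without GFAP hippocampus tumor 1, 6 or 7, or NES tumor 2, the count was 1. Calls over all genes moved too, from 6 without NES tumor 4 to 3398 without NES tumor 1.

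Vip, whose peptide marks interneurons that inhibit other interneurons, was dim. Its SD within groups ran from 0.09 in normal cortex to 0.65 in GFAP cortex tumors. It was 8.98, 8.80, 8.78 and 8.83 in normal cortex, 6.53, 8.01, 6.83 and 6.86 in GFAP tumors and 6.86, 6.81, 6.56 and 6.29 in SYN1 tumors. GFAP cortex tumor 2 was the highest of the tumors, still below every normal array. The differences were -1.79 ± 0.26 (adjusted p = 4.2e-05) and -2.22 ± 0.26 (adjusted p = 6.57e-07). In hippocampus, normal arrays ran from 7.79 to 8.21, the GFAP tumors from 5.99 over a median of 6.56 to 7.07, and the NES tumors from 6.71 to 7.68. GFAP tumors differed by -1.46 ± 0.23 (adjusted p = 2.09e-05) and NES tumors by -0.60 ± 0.26 (adjusted p = 0.166), and neither overlapped normal tissue.

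Npy, a peptide gene of Sst and Lamp5 interneurons, was not called in SYN1 tumors. Normal cortex had 11.99, 11.85, 11.81 and 11.72, and the SYN1 tumors 12.19, 9.9998, 10.85 and 11.66. SYN1 tumor 1 was above and the other 3 below all normal arrays. The difference of -0.67 ± 0.64 did not pass (adjusted p = 0.473, 95% interval -1.99 to 0.66). GFAP cortex tumors had 7.88, 10.86, 11.02 and 11.07, all below normal cortex, at -1.64 ± 0.64 (adjusted p = 0.0599).

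Without GFAP cortex tumor 1 the Npy difference of GFAP cortex tumors from normal cortex was -0.86 rather than -1.64. SYN1 minus GFAP tumors came to 0.97 ± 0.64 for Npy (adjusted p = 0.493), so the groups were not shown to differ. In GFAP hippocampus tumors Npy ran from 7.68 over 9.37 to 11.04 against 10.92 to 11.32 in normal hippocampus. It fell by 1.59 ± 0.57 (adjusted p = 0.0274), a call that was lost with tumors 5 to 7 left out (adjusted p = 0.207 with tumors 1 to 4 only) and in 8 other of 23 alternatives. NES tumors, at 11.48, 11.07, 11.50 and 10.73, lay on both sides of normal tissue, 0.06 ± 0.64 from it (95% interval -1.26 to 1.39).

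Cck, whose peptide is made by basket cells and by many excitatory neurons, varied widely within tumor groups. It was 12.44, 12.19, 12.09 and 12.24 in normal cortex, 7.28, 10.10, 10.44 and 9.50 in GFAP tumors and 7.49, 11.72, 12.22 and 9.13 in SYN1 tumors. SYN1 tumor 3 reached the normal range, and SYN1 tumor 1 lay close to GFAP tumor 1 at the bottom. The difference was -2.91 ± 0.82 for GFAP tumors (adjusted p = 0.00913) and -2.10 ± 0.82 for SYN1 tumors (adjusted p = 0.0438). The second call was lost in 9 of 20 alternatives, among them without SYN1 tumor 1 or 4 (adjusted p up to 0.251 over the alternatives). The first was lost without GFAP cortex tumor 1 (adjusted p = 0.056).

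In hippocampus, Cck was 12.03, 11.66, 12.29 and 12.07 in normal tissue and ran from 7.59 over a median of 9.27 to 12.09 in GFAP tumors, where tumor 5 alone was within the normal range. The difference was -2.60 ± 0.73 (adjusted p = 0.00581). NES tumors had 9.74, 10.93, 10.49 and 10.76, all below normal hippocampus, as 11.0% of all genes were. Their difference of -1.53 ± 0.82 did not pass (adjusted p = 0.281), although it was the largest of the 10 in that comparison.

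**Figure D2:**
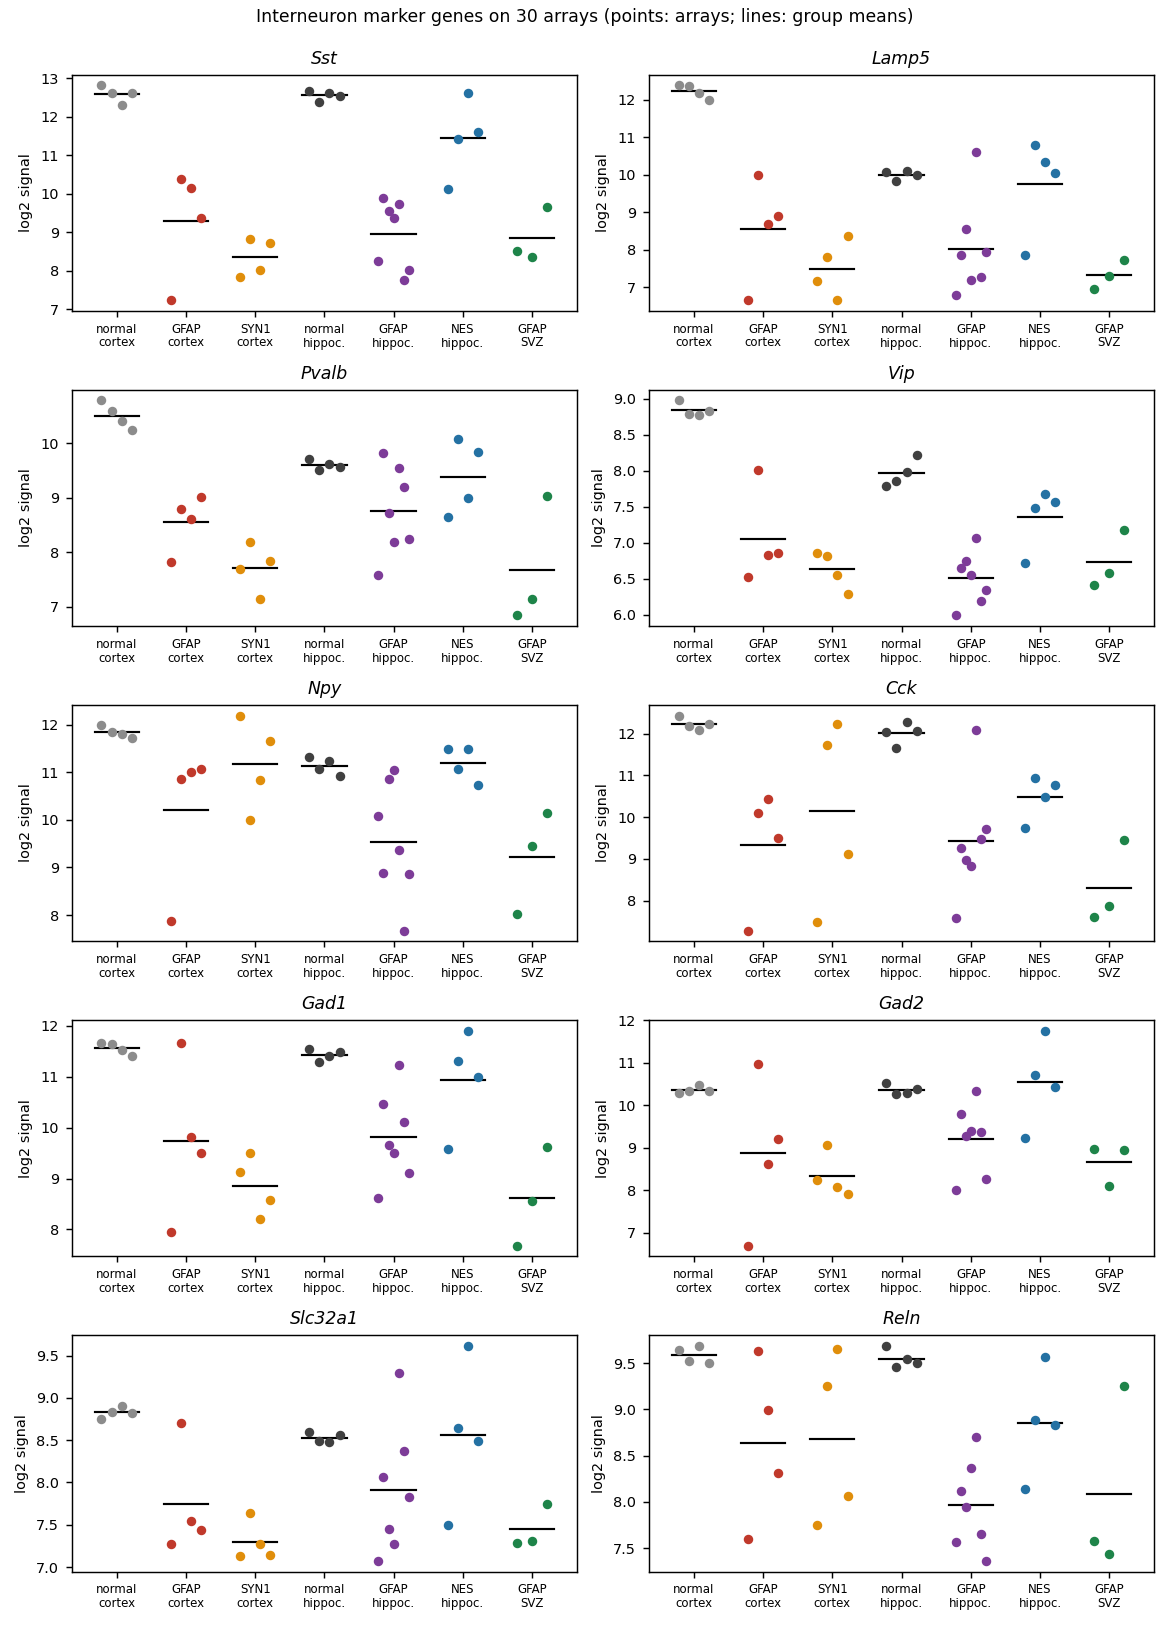
Log2 signal (vertical axes, a separate scale for each gene) of the 10 genes on 30 arrays, 1 point per array, with a line at the mean of each of the 7 groups. Normal arrays lie close together for every gene, and Npy in SYN1 tumors and Gad2 and Slc32a1 in NES tumors reach or pass the normal level.

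Lamp5, a membrane protein gene of neurogliaform interneurons, fell most in the cortex. Normal cortex had 12.39, 12.37, 12.17 and 12.00, GFAP tumors 6.65, 9.99, 8.69 and 8.91, and SYN1 tumors 7.16, 7.81, 6.66 and 8.37. Every tumor was below every normal array, GFAP tumor 1 and SYN1 tumor 3 the furthest. The differences of -3.67 ± 0.66 (adjusted p = 0.000307, 12.7-fold) and -4.735 ± 0.66 (adjusted p = 4.46e-06, 26.6-fold) were the lowest of all 19938 genes in either comparison.

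Normal hippocampus started lower for Lamp5, at 10.08, 9.83, 10.11 and 9.99. GFAP tumors of the hippocampus ran from 6.79 over 7.87 to 10.61, a difference of -1.97 ± 0.59 (adjusted p = 0.00895), with tumor 5 above every normal array. NES tumors had 7.85, 10.79, 10.34 and 10.06. NES tumor 1 was far below normal tissue and NES tumors 2 and 3 above it, and the difference was -0.24 ± 0.66 (adjusted p = 0.871).

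Pvalb, the gene of the calcium buffer of fast-spiking basket cells, was 10.79, 10.59, 10.41 and 10.24 in normal cortex. It ran from 7.83 to 9.01 in GFAP cortex tumors and from 7.15 to 8.19 in SYN1 tumors, with no overlap. The differences were -1.95 ± 0.43 (adjusted p = 0.00171) and -2.79 ± 0.43 (adjusted p = 1.46e-05). In hippocampus the normal arrays ran from 9.51 to 9.72 and the GFAP tumors from 7.57 over 8.73 to 9.82, which overlapped. That difference, -0.85 ± 0.38, did not pass (adjusted p = 0.079), and neither did that of NES tumors at -0.21 ± 0.43 (adjusted p = 0.82), whose arrays ran from 8.65 to 10.07.

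Reln, which guides neuron layering in development and is made by Lamp5 and Sst interneurons in the adult, fell in 1 of the 4 comparisons. Normal hippocampus had 9.69, 9.46, 9.54 and 9.50, and the GFAP hippocampus tumors ran from 7.36 over 7.95 to 8.71. All 7 were below normal tissue, at -1.59 ± 0.38 (adjusted p = 0.00151). NES tumors had 8.14, 8.88, 9.56 and 8.83, a difference of -0.69 ± 0.42 (adjusted p = 0.36).

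In cortex, normal arrays had Reln from 9.50 to 9.68. GFAP tumors had 7.60, 9.63, 8.99 and 8.31, and SYN1 tumors 7.75, 9.25, 9.66 and 8.07. GFAP tumor 2 and SYN1 tumor 3 lay within the normal range, and the differences of -0.95 ± 0.42 (adjusted p = 0.0992) and -0.91 ± 0.42 (adjusted p = 0.097) did not pass. The Cajal-Retzius genes Trp73, Lhx5, Lhx1, Ebf3 and Ebf2 had a mean signal of 6.11 to 6.88 on every array, normal ones included. None of these 5 was called in cortex tumors, and Trp73 fell in GFAP hippocampus tumors by 0.56 ± 0.11 (adjusted p = 0.000333) and in NES tumors by 0.45 ± 0.13 (adjusted p = 0.0245). Their part in the Reln difference was not tested.

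Gad1 was 11.65, 11.64, 11.52 and 11.42 in normal cortex. GFAP cortex tumors had 7.95, 11.65, 9.82 and 9.51, and SYN1 tumors 9.12, 9.50, 8.20 and 8.58. GFAP tumor 2 was just above the highest normal array (11.6546 against 11.6535), and the other tumors were below all normal arrays. The difference was -1.82 ± 0.58 for GFAP tumors (adjusted p = 0.0193) and -2.71 ± 0.58 for SYN1 tumors (adjusted p = 0.000488). Without GFAP cortex tumor 1 the first call was lost (adjusted p = 0.112), and without tumor 2 all 10 members were called lower in GFAP cortex tumors. Calls over all genes, in either direction, were also highest without tumor 2, at 6120. Tumor 2 had the highest Gad1 of its group, so a larger fall of Gad1 follows from leaving it out.

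Gad2 had the same arrays at its ends. Normal cortex had 10.29, 10.34, 10.47 and 10.32, GFAP tumors 6.69, 10.98, 8.62 and 9.20, and SYN1 tumors 8.23, 9.07, 8.09 and 7.90. GFAP tumor 2 was above all normal arrays, and tumor 1 was the lowest of the 30 arrays. The GFAP difference of -1.48 ± 0.59 did not pass (adjusted p = 0.0618), and the SYN1 difference of -2.03 ± 0.59 did (adjusted p = 0.0068).

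Slc32a1 ran from 8.75 to 8.91 in normal cortex, from 7.28 to 8.70 in GFAP tumors and from 7.13 to 7.64 in SYN1 tumors. It fell by 1.09 ± 0.38 (adjusted p = 0.0326) and by 1.54 ± 0.38 (adjusted p = 0.00188). The first of these calls was lost in 8 of 20 alternatives, among them without any 1 of the normal cortex arrays (adjusted p up to 0.101). Both counts hold the fit without GFAP cortex tumor 1 as a setting and again as an array left out.

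In GFAP hippocampus tumors, 1 of the 3 genes of GABA synthesis and loading passed. As 25.2% of all genes were called lower there, this count is near the share of all genes. Gad1 ran from 11.30 to 11.55 in normal tissue and from 8.61 over 9.65 to 11.24 in GFAP tumors, at -1.62 ± 0.51 (adjusted p = 0.0134). Gad2 was 10.52, 10.27, 10.28 and 10.39 in normal tissue and ran from 7.99 over 9.37 to 10.33 in GFAP tumors, at -1.16 ± 0.52 (adjusted p = 0.0763). Slc32a1 was 8.48 to 8.59 in normal tissue and 7.07 over 7.82 to 9.30 in GFAP tumors, at -0.62 ± 0.34 (adjusted p = 0.142). GFAP hippocampus tumor 5 was the highest of the 7 for all 3 genes and passed every normal array for Slc32a1.

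NES tumors had Gad2 at 9.23, 10.71, 11.75 and 10.44 and Slc32a1 at 7.49, 8.65, 9.62 and 8.49. NES tumor 1 was below and NES tumors 2 and 3 were above all normal hippocampus arrays for both genes. The differences from normal hippocampus were 0.17 ± 0.59 for Gad2 (95% interval -1.04 to 1.38) and 0.03 ± 0.38 for Slc32a1 (-0.75 to 0.81). The latter turned to -0.034 with arrays centred on their medians and to -0.078 with quantile normalization. Gad1, at 9.57, 11.31, 11.91 and 11.00, differed by -0.49 ± 0.58 (adjusted p = 0.674).

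The tumors with high Gad2 were those with high Drd2. Among the 22 tumor arrays, Gad2 was 10.33 or more in the 5 with Drd2 above 9 and 9.79 or less in the other 17. In normal cortex this was not so, since arrays 3 and 4, with Drd2 at 10.60 and 9.87, had Gad2 at 10.47 and 10.32 and arrays 1 and 2 at 10.29 and 10.34. With the 7 arrays of high Drd2 left out, Gad2 was called lower in GFAP cortex tumors (-2.14, adjusted p = 0.0102) and in GFAP hippocampus tumors (-1.35, adjusted p = 0.0113). This refit drops GFAP cortex tumor 2 and GFAP hippocampus tumor 5, the highest of their groups for Gad2 (10.98 and 10.33). GFAP hippocampus tumor 5 was the highest for Slc32a1 too, so larger falls were set by the choice of arrays. The 5 tumors with Drd2 above 9 were also nearest to normal tissue on the first principal component, at 17.5 to 47.6. The other 17 ran from -69.3 to -8.63 and normal arrays from 69.8 to 85.1. In the same refit Slc32a1 passed in GFAP hippocampus tumors too (-0.86, adjusted p = 0.0017), while Cck in SYN1 tumors (adjusted p = 0.11) and Npy in GFAP hippocampus tumors (adjusted p = 0.0684) no longer passed. Over the 7 measured striatal genes, the mean signal per array ran from 8.90 to 10.27 in normal cortex and from 8.80 to 8.95 in normal hippocampus. It ran from 7.81 to 9.77 in GFAP cortex tumors, from 7.54 to 9.79 in GFAP hippocampus tumors and from 7.94 to 10.61 in NES tumors. SYN1 tumors ran from 7.79 to 7.92 and SVZ tumors from 7.67 to 8.08.

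**Figure D3:**
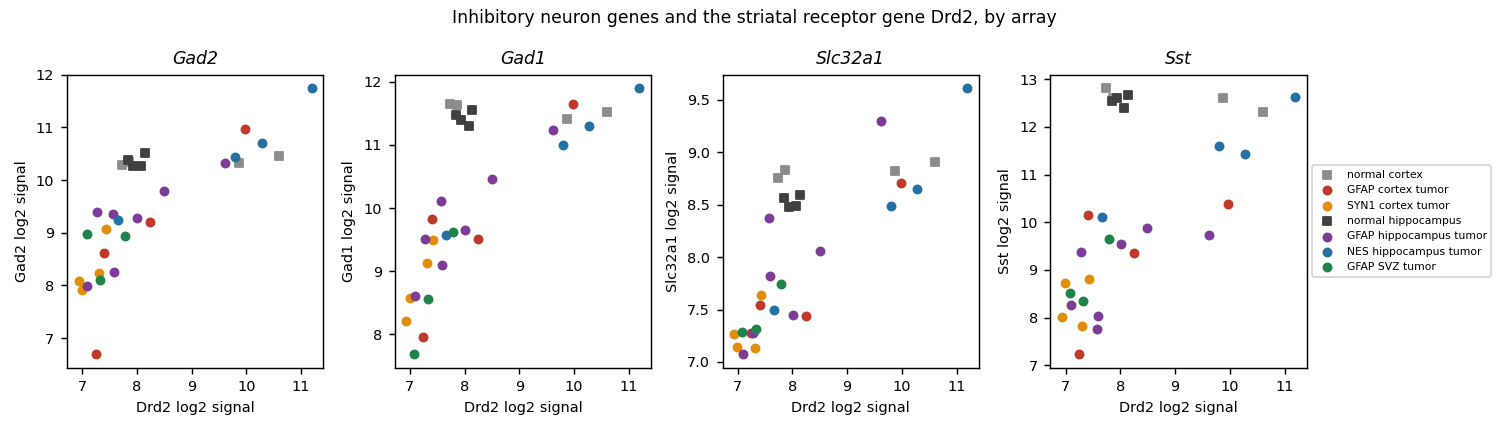
Log2 signal of Gad2, Gad1, Slc32a1 and Sst (vertical axes) against that of Drd2 (horizontal axes) on 30 arrays, 1 point per array, squares for normal tissue and circles for tumors. The 5 tumor arrays with Drd2 above 9 have Gad2 at 10.33 or more, and the normal arrays have Sst at 12.31 or more at every Drd2 level.

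By array, all 10 members were below all 4 normal arrays of their region in GFAP cortex tumors 1, 3 and 4, in SYN1 tumors 2 and 4, and in GFAP hippocampus tumors 1, 3, 6 and 7. The count was 9 in SYN1 tumor 1 and GFAP hippocampus tumors 2 and 4, and 8 in SYN1 tumor 3. It was 7 in GFAP cortex tumor 2, against 52.9% of all genes, and 5 in GFAP hippocampus tumor 5, against 52.1%. NES tumors 1 to 4 had 9, 4, 3 and 6, against 42.6%, 38.3%, 24.6% and 40.6% of all genes. The counts in GFAP hippocampus tumor 5 and NES tumors 2 and 3 are near those shares. NES tumor 3 had 5 members above all normal hippocampus arrays, which were Lamp5, Npy, Gad1, Gad2 and Slc32a1. In that tumor 43.4% of all genes were above them too, so this count is near the share of all genes. All 3 SVZ tumors had all 10 members below all 8 normal arrays, as were 23.2% of all genes, a comparison across regions for which there was no matched normal tissue. The share of all genes below all 4 normal arrays of the region ran from 24.6% in NES tumor 3 to 55% in GFAP hippocampus tumor 6.

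**Figure D4:**
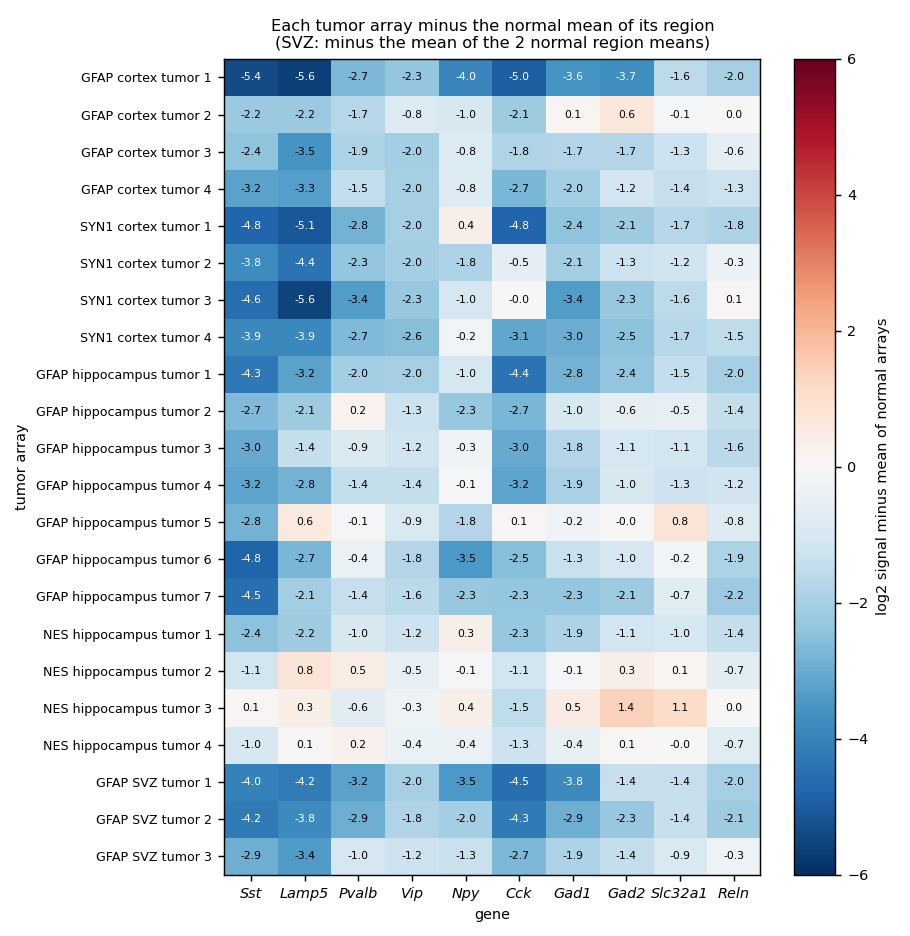
Each of the 22 tumor arrays (rows) minus the normal mean of its region, in log2 units, for the 10 genes (columns); blue is lower and red higher, and SVZ tumors are set against the mean of both normal regions. NES tumor 3 is red for Gad2 and Slc32a1, and GFAP cortex tumor 1 is blue in all 10 columns.

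Set against general neuron genes, the members moved by different amounts. For each array, the difference of a member from its mean over the 8 normal arrays was taken minus the same difference averaged over 10 pan-neuron genes such as Snap25, Syt1 and Rbfox3. For Sst this was -1.70 ± 0.29 (SD, n = 4) in GFAP cortex tumors, -2.15 ± 0.52 (n = 4) in SYN1 tumors, -2.02 ± 0.50 (n = 7) in GFAP hippocampus tumors and -1.70 ± 0.33 (n = 3) in SVZ tumors. Every array of these groups was at -1.38 or lower, while normal arrays ran from -0.29 to 0.15 and NES tumors from -1.31 to 0.29. For Lamp5 it was 0.98 ± 0.11 in normal cortex, -0.97 ± 0.40 in GFAP cortex tumors and -1.55 ± 0.47 in SYN1 tumors.

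For Npy the value was 0.22 ± 0.05 in normal cortex and 1.76 ± 0.94 in SYN1 tumors (0.41 to 2.55), all 4 arrays above those of normal cortex. Slc32a1 in SYN1 tumors was at 0.69 ± 0.56 against 0.02 ± 0.17 in normal cortex, and Gad2 at 0.04 ± 0.64 against -0.13 ± 0.17. Slc32a1 is dim, at 8.48 to 8.91 in normal tissue, where the pan-neuron list had means of 11.26 to 11.86. Background compresses the differences of dim genes. Its means were positive in the other tumor groups too, from 0.50 to 0.83, and do not show that Slc32a1 was spared. These values are a description and were not tested.

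The pan-neuron list itself fell in the same comparisons. In GFAP cortex, SYN1, GFAP hippocampus and NES tumors, 18.8%, 20.5%, 25.2% and 2.86% of all genes were called lower. Of the 10 pan-neuron genes, 7, 8, 7 and 0 were lower in that order, with median differences of -1.98, -2.54, -1.70 and -0.52. Snap25, a vesicle fusion gene, differed by -2.61 ± 0.63, -3.17 ± 0.63, -2.41 ± 0.56 and -0.90 ± 0.63 in that order. The excitatory neuron list had 8 of 9 genes lower in each of the first 3 groups and 3 of 9 in NES tumors, with medians of -2.20, -3.07, -2.36 and -1.07. Neurod6, a transcription factor gene of pyramidal neurons, differed by -3.27 ± 0.51, -4.43 ± 0.51, -4.91 ± 0.45 and, in NES tumors, -3.34 ± 0.51 (adjusted p = 0.000122). The vesicular glutamate transporter gene Slc17a7 fell in the first 3 and was at -1.40 ± 0.81 in NES tumors (adjusted p = 0.326). NES tumors thus had 3 excitatory neuron genes lower, Neurod6, Neurod1 and Neurod2, and none of the 10 interneuron members. Whether the lists differ from each other was not tested.

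Of 23 other measured peptide and subtype markers of interneurons, 13 were lower in GFAP cortex tumors, 15 in SYN1 tumors, 15 in GFAP hippocampus tumors and 2 in NES tumors, and none was higher. The medians were -0.92, -1.29, -0.84 and -0.19. The shares of all genes called lower were 18.8%, 20.5%, 25.2% and 2.86%. Calb1, the calbindin gene, differed by -2.16 ± 0.71, -2.73 ± 0.71 and -1.91 ± 0.63 in the first 3 groups. Erbb4, the neuregulin receptor gene of interneurons, differed by -2.09 ± 0.48, -2.99 ± 0.48 and -1.91 ± 0.43. The potassium channel gene Kcnc1 of fast-spiking cells differed by -1.89 ± 0.40, -2.56 ± 0.40 and -1.66 ± 0.36.

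Some of these genes passed in 1 region only. Crh, a stress peptide gene, fell in both cortex tumor groups (-1.13 ± 0.24 and -1.12 ± 0.24) and was at -0.16 ± 0.21 in GFAP hippocampus tumors (adjusted p = 0.579). Nos1, the nitric oxide synthase gene, was at -0.16 ± 0.36 in GFAP cortex tumors (adjusted p = 0.796) and fell by 2.20 ± 0.32 in GFAP hippocampus tumors. Calb2, the calretinin gene, fell in GFAP hippocampus tumors by 1.63 ± 0.64 (adjusted p = 0.0418). In the test of the difference between regions for GFAP tumors, an interaction that called 0.838% of all genes, Nos1 passed at -2.04 ± 0.48 (hippocampus minus cortex, adjusted p = 0.035). Crh (0.97 ± 0.32, adjusted p = 0.188) and Calb2 (-1.20 ± 0.96, adjusted p = 0.755) did not. The 2 genes lower in NES tumors were the serotonin receptor gene Htr3a (-1.16 ± 0.24, adjusted p = 0.00249) and Cort, the gene of a somatostatin-like peptide (-0.50 ± 0.12, adjusted p = 0.00903).

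Of 15 measured transcription factors that specify interneurons, 3 were lower in GFAP cortex tumors and 8 in SYN1 tumors. In hippocampus, 9 were lower in GFAP tumors and 2 in NES tumors. The medians were -0.42, -0.62, -0.82 and -0.20. The shares of all genes called lower were 18.8%, 20.5%, 25.2% and 2.86%, and the count in GFAP cortex tumors is near its share. Lhx6, which marks Sst and Pvalb cells, did not pass in any of the 4 comparisons (-0.36 ± 0.28, -0.16 ± 0.28, -0.41 ± 0.25 and 0.02 ± 0.28). Dlx1 fell in SYN1 tumors by 1.66 ± 0.41 and in GFAP hippocampus tumors by 1.68 ± 0.36. Satb1, which matures Sst cells, fell in the first 3 groups by 1.84 ± 0.40, 2.40 ± 0.40 and 1.11 ± 0.36. Prox1, also a gene of dentate granule cells, fell by 2.61 ± 0.27 in GFAP hippocampus tumors and by 1.81 ± 0.31 in NES tumors. Nr2f2 was the only gene of this list called higher, by 0.91 ± 0.29 in SYN1 tumors (adjusted p = 0.0137), and was named after its values were seen.

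Of 7 measured genes for GABA transport and breakdown, 3 were lower in GFAP cortex tumors and 6 in SYN1 tumors. In hippocampus, 2 were lower in GFAP tumors and none was called in NES tumors. The medians were -1.11, -1.43, -0.63 and -0.12. The shares of all genes called lower were 18.8%, 20.5%, 25.2% and 2.86%, and the count in GFAP hippocampus tumors is near its share. Abat, the enzyme that breaks GABA down, differed by -1.63 ± 0.58 in GFAP cortex tumors and by -2.40 ± 0.58 in SYN1 tumors. The GABA transporter gene Slc6a13 fell in the first 3 groups by 1.35 ± 0.35, 1.81 ± 0.35 and 0.96 ± 0.31. Slc6a11, the astrocytic transporter gene, fell in SYN1 tumors by 2.58 ± 0.71. The glutamine transporter gene Slc38a2 rose in GFAP hippocampus tumors by 0.64 ± 0.24 (adjusted p = 0.0358).

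Of 11 measured genes for peptide processing and dense-core vesicles, 8 were lower in GFAP cortex tumors, 9 in SYN1 tumors, 8 in GFAP hippocampus tumors and 1 in NES tumors, with medians of -1.93, -2.65, -1.34 and -0.33. Pcsk1, the convertase that cuts propeptides, differed by -2.56 ± 0.34, -3.26 ± 0.34 and -1.34 ± 0.30 in the first 3 groups. Chgb, a granin gene of the vesicle core, differed by -2.19 ± 0.51, -3.29 ± 0.51 and -2.41 ± 0.46. Cpe, a carboxypeptidase gene used outside neurons too, passed in none (-0.69 ± 0.30, -0.67 ± 0.30, 0.19 ± 0.27 and -0.33 ± 0.30). Cadps2 was the gene lower in NES tumors, by 1.27 ± 0.37 (adjusted p = 0.0283). The shares of all genes called lower in the 4 groups were 18.8%, 20.5%, 25.2% and 2.86%.

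**Figure D5:**
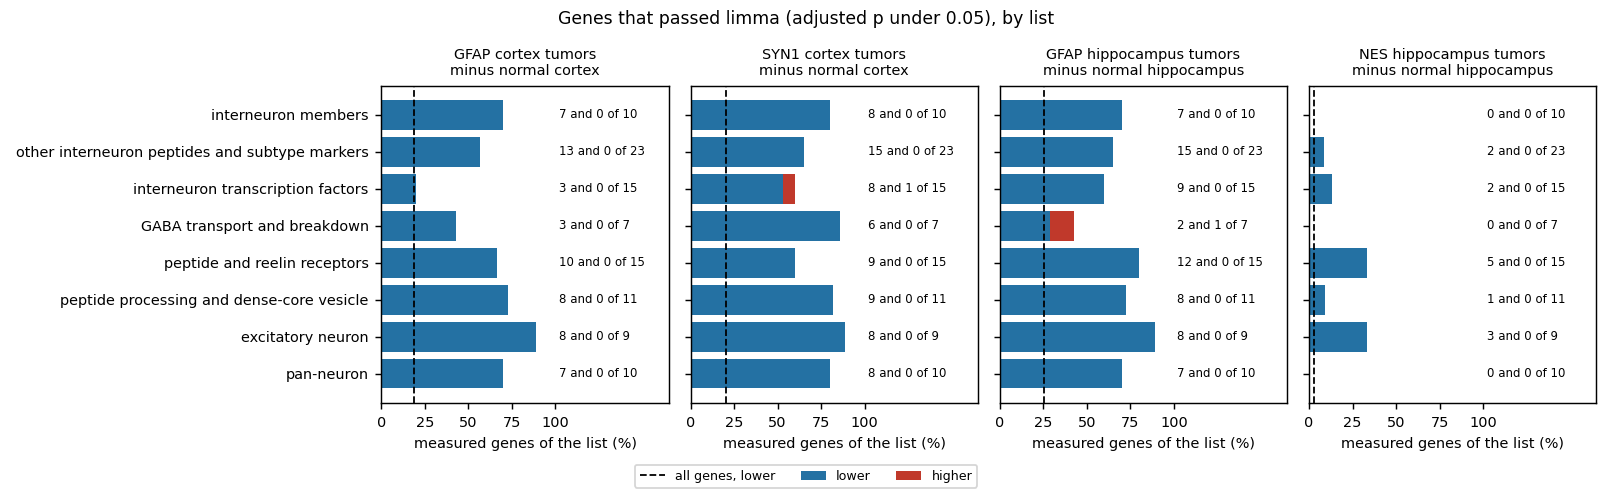
Share of measured genes in 8 lists (horizontal axis, percent) that passed limma at adjusted p under 0.05 in each tumor group against normal tissue, with the counts lower and higher beside each bar. The dashed line marks the share of all genes called lower, 18.8%, 20.5%, 25.2% and 2.86% from left to right.

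The list of peptide and reelin receptors held 14 receptor genes and Dab1, an adaptor of the reelin receptors, and all 15 were measured. Of these 15, 10 were lower in GFAP cortex tumors, 9 in SYN1 tumors, 12 in GFAP hippocampus tumors and 5 in NES tumors. None was higher, and the medians were -0.75, -1.23, -0.93 and -0.45. The shares of all genes called lower were 18.8%, 20.5%, 25.2% and 2.86%. Among somatostatin receptors, Sstr2 differed by -2.07 ± 0.35, -2.97 ± 0.35, -1.57 ± 0.31 and -0.45 ± 0.35, and Sstr1 by -1.19 ± 0.25, -1.95 ± 0.25, -0.93 ± 0.22 and -0.34 ± 0.25. Sstr4 was lower in all 4 groups, at -1.94 ± 0.37, -2.95 ± 0.37, -3.23 ± 0.33 and -2.11 ± 0.37. Sstr3 was lower in all 4 as well, by 0.75 to 1.23, and Sstr5, at mean signals of 6.28 to 6.61, fell in GFAP hippocampus tumors alone, by 0.33 ± 0.11.

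Among neuropeptide Y receptors, Npy1r was lower in all 4 groups, by 1.79 ± 0.28, 2.50 ± 0.28, 1.92 ± 0.25 and 1.31 ± 0.28, and Npy5r by 0.59 to 0.85. Npy2r separated the normal regions, with a mean of 6.13 ± 0.14 (SD, n = 4) in cortex and 9.02 ± 0.16 (n = 4) in hippocampus. It fell by 2.76 ± 0.29 in GFAP and by 2.04 ± 0.33 in NES hippocampus tumors and passed in neither cortex tumor group (0.63 ± 0.33 and -0.10 ± 0.33).

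Cckbr, the cholecystokinin receptor gene of the brain, had means of 10.35 in normal cortex and 8.19 in normal hippocampus. It fell by 2.91 ± 0.32 in GFAP cortex tumors, fell by 3.29 ± 0.32 in SYN1 cortex tumors and fell by 0.76 ± 0.28 in GFAP hippocampus tumors, while it was at 0.18 ± 0.32 in NES tumors. Cckar, at means of 6.34 to 6.83, was called in none. Vipr1 fell in the first 3 groups by 1.77 ± 0.21, 2.15 ± 0.21 and 1.46 ± 0.19 and was at -0.56 ± 0.21 in NES tumors (adjusted p = 0.105). Vipr2 was called in none (0.51 ± 0.31, 0.07 ± 0.31, 0.38 ± 0.28 and 0.58 ± 0.31).

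On the reelin side, Dab1, the adaptor that carries the signal into the cell, fell in the first 3 groups by 1.88 ± 0.58, 2.95 ± 0.58 and 2.65 ± 0.51, and was at -1.28 ± 0.58 in NES tumors (adjusted p = 0.192). The receptor gene Lrp8 fell in GFAP tumors by 0.67 ± 0.20 in cortex and 0.68 ± 0.17 in hippocampus. The receptor gene Vldlr was called in none, with differences from -0.13 to 0.32.

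Markers of other cells moved in the same tumors. In GFAP cortex, SYN1, GFAP hippocampus and NES tumors, 18.8%, 20.5%, 25.2% and 2.86% of all genes were called lower. The share of all genes called higher is not set beside the counts of higher genes below. Those counts are therefore not read as results about these cells. In oligodendrocytes, 5 of 5 measured genes were lower in both cortex tumor groups, 3 of 5 in GFAP hippocampus tumors and 0 of 5 in NES tumors. Their mean signal per array was 10.38 to 10.70 in normal tissue, 7.10 to 9.85 in GFAP cortex tumors, 7.56 to 8.89 in SYN1 tumors, 8.30 to 10.40 in GFAP hippocampus tumors and 9.33 to 10.50 in NES tumors. Microglia and macrophage genes were called higher (3, 3, 4 and 4 of 5), with mean signals of 8.24 to 8.56 in normal tissue and 8.54 to 10.40 in these 4 tumor groups. Endothelial genes were called higher for 1, 3, 3 and 0 of 4. Among 6 astrocyte genes, 1 and 2 were lower in the cortex tumor groups and 1 was higher in GFAP hippocampus tumors. Neuroblast genes, a sign of immature neurons, had Cd24a higher in all 4 groups and Dcx lower in SYN1 tumors (-1.80 ± 0.43), with Igfbpl1 lower in GFAP hippocampus tumors. Oligodendrocyte precursor genes had 1 of 5 lower in each of the first 3 groups and Pdgfra higher in GFAP hippocampus tumors. The lower counts of precursor genes, and of astrocyte genes in GFAP cortex tumors, are near the shares of all genes. The part of these cells in the members' differences was not tested.

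Comparisons among tumors found little for the members. SYN1 minus GFAP tumors of the cortex called none of the 10 (limma, adjusted p 0.364 to 0.977; none had an unadjusted p under 0.05), against 0.176% of all genes. The differences ran from -1.06 ± 0.66 for Lamp5 to 0.97 ± 0.64 for Npy, and the intervals allow 2-fold or larger effects for most genes. GFAP hippocampus minus GFAP cortex tumors called none (adjusted p 0.194 to 0.97, Vip alone with an unadjusted p under 0.05), against 2.68% of all genes. That is 534 genes, or 1954 with the replicate number as a block, a fit that called none of the 10 either. SVZ minus cortex GFAP tumors called none, nor at an unadjusted p under 0.05, against 0.00502% of all genes. There Lamp5 was at -1.24 ± 0.72, Gad1 at -1.12 ± 0.63, Cck at -1.02 ± 0.89.

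SVZ minus hippocampus GFAP tumors called none either, against 0.316% of all genes. Gad1 (-1.19 ± 0.57), Cck (-1.11 ± 0.80) and Pvalb (-1.09 ± 0.42) had the largest differences, and Pvalb and Gad1 had an unadjusted p under 0.05. Whether GFAP tumors differed from normal tissue by other amounts in hippocampus than in cortex was tested as an interaction, which called none of the 10 (adjusted p 0.517 to 0.995, none with an unadjusted p under 0.05) against 0.838% of all genes. Its largest values were 1.70 ± 0.89 for Lamp5 and 1.10 ± 0.58 for Pvalb, the smaller fall being in hippocampus.

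Normal hippocampus and normal cortex differed for some members in level but not past the threshold. Lamp5 (-2.23 ± 0.66, adjusted p = 0.126), Vip (-0.88 ± 0.26, adjusted p = 0.117), Pvalb, Npy and Slc32a1 were lower in hippocampus with no overlap between the 4 and 4 arrays, as were 12.0% of all genes. None passed the limma test, which pools the spread of tumor arrays, 3 had an unadjusted p under 0.05 (Lamp5, Pvalb and Vip), and 1.29% of all genes passed. With only the 8 normal arrays in the fit these 5 genes passed, and so did 13.9% of all genes. Sst (-0.03 ± 0.56), Gad1, Gad2, Cck and Reln overlapped between the regions.

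Across all 7 groups, normal cortex had the highest mean for 9 members, and for Gad2 NES tumors had it, at 10.53 ± 1.03 (SD, n = 4) against 10.36 ± 0.08 in normal cortex and 10.36 ± 0.12 in normal hippocampus, well within the spread. Normal hippocampus and NES tumors took the next 2 places for Sst, Lamp5, Pvalb, Vip, Cck, Gad1, Slc32a1 and Reln. SVZ tumors were lowest for Lamp5 (7.32 ± 0.39, n = 3), Pvalb, Npy, Cck and Gad1, and SYN1 tumors for Sst (8.35 ± 0.49, n = 4), Gad2 and Slc32a1. GFAP hippocampus tumors were lowest for Vip and Reln. The means of GFAP cortex, SYN1, GFAP hippocampus and SVZ tumors for Sst, 9.28 ± 1.43, 8.35 ± 0.49, 8.94 ± 0.89 and 8.84 ± 0.71, did not differ beyond their spread.

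The spread over all 30 arrays also set the members apart in size. The SD was 1.86 for Sst, 1.82 for Lamp5 and 1.69 for Cck, above 99.9%, 99.8% and 99.6% of genes, and 0.73 for Slc32a1, above 85.8%. Likeness was measured as the mean absolute difference between profiles over the 30 arrays after each gene's own mean was taken off, so a small value means 2 similar profiles. Gad1 and Gad2 were each other's closest member, 0.36 apart. Npy was the farthest member from Sst, Lamp5, Pvalb, Cck and Gad1, at 0.95 to 1.24.

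Among all genes, the profiles nearest to Sst were those of Dbpht2 (0.37), Rasgrp1 (0.39) and Syt5 (0.39). Lamp5 was nearest to Tbr1, Rgs4 and Kcnh7 (0.42 each), Pvalb to Clstn1 (0.31), Hapln4 and Hcn2 (0.32 each), and Vip to Tmem44, Scrt1 and Tmem121b (0.18 each). Npy was nearest to Marchf4, R3hdm1 and Mras (0.51 each) and Cck to Slc8a2, Adcy1 and Galnt9 (0.58 to 0.60). Gad1 was nearest to Gdap1, Sez6l2 and Lonrf2 (0.22 to 0.23) and Gad2 to Abat, Galnt13 and Plppr1 (0.30 to 0.33). Slc32a1 was nearest to Bex2, Aifm3 and Dcaf12l1 (0.21 each), and Reln to Ablim3, Fbxl2 and C2cd2l (0.27 to 0.28). Dim genes with little spread are close to each other by this measure, so distances are not to be compared between members.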

How the data were processed

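The values are the log2 signals deposited by the authors, 1 for each of 35556 probe sets and 30 arrays, from 0.133 to 16.1. Per the submitters' processing notes, Affymetrix Power Tools, MAS5 and RMA were used, with no versions, roles or order. How arrays were scaled to each other is not given in the sources used here, and the deposited log2 values were used without further scaling. Background is part of the log2 signal. A low value therefore does not show that a gene is absent, and the differences of dim genes are compressed.

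Of the probe sets, 21789 name 1 gene symbol, 1621 several and 12146 none, and 21698 of the first kind matched a RefSeq gene by Entrez ID. The probe set with the highest mean was kept for each of 19938 genes. No 2 columns were identical. A linear model with a mean for each of the 7 labelled groups was fitted to the 30 arrays together (limma 3.58.1, R 4.3.3). Its 11 contrasts were each adjusted by Benjamini-Hochberg over all genes at 0.05. The script was tested on simulated data. Precision is limited by array number, which was 3 to 7 per group.

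The members and lists were chosen with earlier results of these data known. There were 16 lists beside the members, of 157 genes in all with the members, 146 of them measured. Named genes are all members, the first 3 genes of each list, up to 3 called genes of a list with the largest differences in a described comparison, all listed receptors, and the 3 genes of most similar profile for each member, predicted genes left out. The other list genes were not analysed here.

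Replicate numbers were checked for pairing by the correlation of residuals. Every pair was above 0.1 (0.277 to 0.306) for GFAP tumors 1 to 4 of hippocampus and cortex alone, a hint from the data, since the labels tie no numbers together. In the other contrasts, pairs ran from -0.394 to 0.565. Alternatives were median centring, quantile normalization, a filter, the mean of probe sets, trend and robust eBayes, fewer arrays, array weights, a replicate block, 2 thresholds, and each array left out. Leaving out 7 arrays by Drd2 was added after the data were seen.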

Additional observations from a re-analysis of the deposited data

Results flagged for a closer look

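In GFAP cortex tumors, Npy was 7.88 in tumor 1 and 10.86 to 11.07 in the other 3 tumors, a gap of 0.933 of the group's whole range. This was the only far array among 60 tests of 10 genes in the 6 groups of 4 to 7 arrays, which is no more than the 1 in 20 that chance gives. The same array was the lowest of its group for all 10 genes.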

How the results depend on the processing

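All 22 called differences between tumors and normal tissue kept their direction in all 461 values under the alternatives, and 17 kept the call in each. The other 5 were Cck, Gad1 and Slc32a1 in GFAP cortex tumors, Cck in SYN1 tumors and Npy in GFAP hippocampus tumors. Among the 17, Gad1 in GFAP hippocampus tumors (limma, adjusted p = 0.0134) was not called at adjusted p under 0.01. The cause was not tested for any change below. Vip and Slc32a1 were the dimmest members, with means of 7.24 and 8.05, where background weighs most.

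With 1 array left out, the count of members lower ran from 4 (without GFAP cortex tumor 1) to 10 (without tumor 2) in GFAP cortex tumors, from 7 to 9 in SYN1 tumors and from 6 (without normal hippocampus 1) to 10 (without tumor 5) in GFAP hippocampus tumors. It stayed at 0 in NES tumors, and NES against GFAP hippocampus tumors ran from 0 to 6. The other 6 contrasts stayed at 0. Calls over all genes ran from 4269 to 6120 in GFAP cortex, 6878 to 7434 in SYN1 and 6880 to 8836 in GFAP hippocampus tumors. They ran from 6 to 3398 in NES against GFAP hippocampus tumors.

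Calls over all genes also moved between the fits that follow, as given below, so these counts are not read as results about the members alone. NES tumors against normal tissue had 1 member called with only the arrays compared (Cck) and 4 with array weights. NES against GFAP tumors, with 2 calls, had 0 with only the arrays compared, 10 with array weights, 5 with the replicate block, 4 with GFAP hippocampus tumors 1 to 4 only, 5 without GFAP cortex tumor 1, 6 without the 4 arrays that stand apart (GFAP cortex tumor 1 and GFAP hippocampus tumors 5 to 7), 0 at adjusted p under 0.01 and 1 with a 2-fold demand. Normal hippocampus against normal cortex, with 0, had 5 with only these arrays, 3 with array weights and 1 (Lamp5) with the replicate block, with GFAP hippocampus tumors 1 to 4 only, without the 4 arrays or without the 7 arrays of high Drd2. SYN1 against GFAP tumors had 2 (Sst and Lamp5) with array weights or without the 4 arrays. SVZ against cortex tumors had 7 with array weights and 3 without the 4 arrays, SVZ against hippocampus tumors 1 with array weights, and hippocampus against cortex GFAP tumors 1 without the 4 arrays. GFAP cortex tumors had 4 lower without tumor 1. The replicate block changed no other call count by over 1.5 times, with 10, 9, 8 and 0 members in the 4 tumor groups against normal tissue.

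Signs turned only for differences that were not called. In NES tumors Npy turned to -0.0025 with median centring and -0.024 with array weights, Slc32a1 to -0.034 with centring and -0.078 with quantile normalization, and Lamp5 and Pvalb to 0.42 and 0.23 with array weights. Between the normal regions Sst turned to 0.026 and Reln to 0.045 with quantile normalization, and Sst to 0.0023 with array weights. Between SYN1 and GFAP tumors Reln turned to -0.14 with array weights and to -0.30 without GFAP cortex tumor 1 or the 4 arrays, and Gad2 to 0.15 without the 7 arrays. With 1 array left out, Reln ran from -0.30 to 0.38 and Gad2 from -1.28 to 0.15 between SYN1 and GFAP tumors, and Sst from -0.13 to 0.043 and Gad2 from -0.046 to 0.044 between normal regions. In NES tumors Lamp5 ran from -0.59 to 0.39, Pvalb from -0.44 to 0.031, Npy from -0.039 to 0.22, Gad2 from -0.24 to 0.60 and Slc32a1 from -0.32 to 0.39.

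Counts over all genes moved more. GFAP cortex tumors had 5536 genes called, 2830 with a 2-fold demand and 10610 with array weights. SYN1 tumors had 7723 (4283 with a 2-fold demand), GFAP hippocampus tumors 8245 (3248) and NES tumors 1706 (702 without NES tumor 1 to 7723 with array weights). NES against GFAP tumors had 1637 (0 to 4715), SYN1 against GFAP 35 (1 to 2655), SVZ against cortex 1 (0 to 5173), SVZ against hippocampus 63 (0 to 528), hippocampus against cortex tumors 534 (0 to 2090), the normal regions 257 (149 to 2768) and the interaction 167 (85 to 1696). Lower and higher calls in NES against GFAP tumors were 417 and 1220, but 913 and 688 with median centring, which moved the median of all genes from 0.06 to -0.06, and 1056 and 918 with quantile normalization. In NES tumors against normal tissue they were 571 and 1135, and 852 and 1098 with centring.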
